A study of Mus musculus with 8 samples.

Results

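The genes described here act in the G2 phase of the cell cycle and in mitosis. They are 30 genes chosen by name for these functions, of which 29 had a probe set assigned to that gene alone, out of 18193 genes measured on the same arrays. Ccnb1, which encodes cyclin B1, is not among the measured genes and was not analysed here. Mutant cells were primary palatal mesenchyme of C57BL/6J mouse embryos at embryonic day 13.5 with the genotype Tgfbr2 fl/fl; Wnt1-Cre, and control cells were the same tissue from Tgfbr2 fl/fl embryos. The floxed alleles were thus common to both groups, although the control titles read wildtype, and Wnt1-Cre acts on this TGF-beta receptor gene only in cells of the neural crest lineage. All cells were collected after 2 passages in culture, and total RNA was hybridised to Affymetrix whole-genome mouse arrays, 4 per genotype. Whether each culture came from its own embryo is not stated, so p-values reflect only the spread among these samples, some of which may be technical. All values are log2 intensities, so a difference of 1 is a 2-fold change, and the number of arrays limits their precision.

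As background, a cell enters mitosis when cyclins A and B activate the kinase CDK1, and Polo-like and Aurora kinases then drive the building of the spindle. Kinetochores tie chromosomes to spindle microtubules and hold back anaphase through the spindle checkpoint, until the anaphase-promoting complex marks cyclin B and securin for destruction. Kinesin motors shape the spindle, and a set of midzone proteins then directs cytokinesis. Transcripts of these genes rise together late in the cycle and fall when cells leave it, so they serve as markers of dividing cells. In the palatal shelves, proliferation of the neural crest mesenchyme drives outgrowth before the shelves meet.

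In mutant cells none of the 29 genes passed the test between genotypes, and most had small negative differences. The median difference was -0.19 on the log2 scale, and 22 of 29 were negative, against a median of -0.01 and 51.7% negative over all genes. Adjusted p in limma over all genes lay between 0.187 and 0.992, and 16 genes of the whole array passed (0.0879%), 12 of them lower (0.0660%). That count of 16 ran from 0 to 1316 when single arrays were left out, the highest without mutant 4, while no member passed without any 1 array. At an unadjusted p under 0.05, 5 of the 29 were lower and 0 higher, where 9.69% of all genes were lower and 5.84% higher. Those 5 were the checkpoint kinase gene Ttk, the spindle factor gene Tpx2, the midzone protein gene Prc1, the kinase gene Plk1 and Cdk1. Without mutant 1 or without control 3 the count of 5 was 3. Over all genes 1738 and 2292 were then at that p in either direction, against 2826 with every array. The 95% confidence intervals of the 29 differences ran from -0.95 at the lowest bound to 0.87 at the highest, so 0 of the 29 intervals reached a 2-fold change in either direction. In bulk RNA, fewer dividing cells and less RNA per dividing cell cannot be told apart.

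A second division of the arrays was larger for most of these genes than the genotype. The bioB control RNA, which is added to each sample before hybridisation, gave 8.24 to 8.79 for mutants 3 and 4 and controls 3 and 4, against 6.34 to 6.52 for the other 4 arrays. These are called high-bioB and low-bioB arrays here, 4 of each with 2 mutants among them, and the sources used here do not say what else sets them apart. With genotype in the fit, 10 of the 29 genes were lower and 1 was higher on high-bioB arrays at an adjusted p under 0.05 in limma, where 3.19% of all genes passed, 1.34% lower and 1.85% higher. The difference by bioB was larger in size than that by genotype for 23 of the 29.

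**Figure D1:**
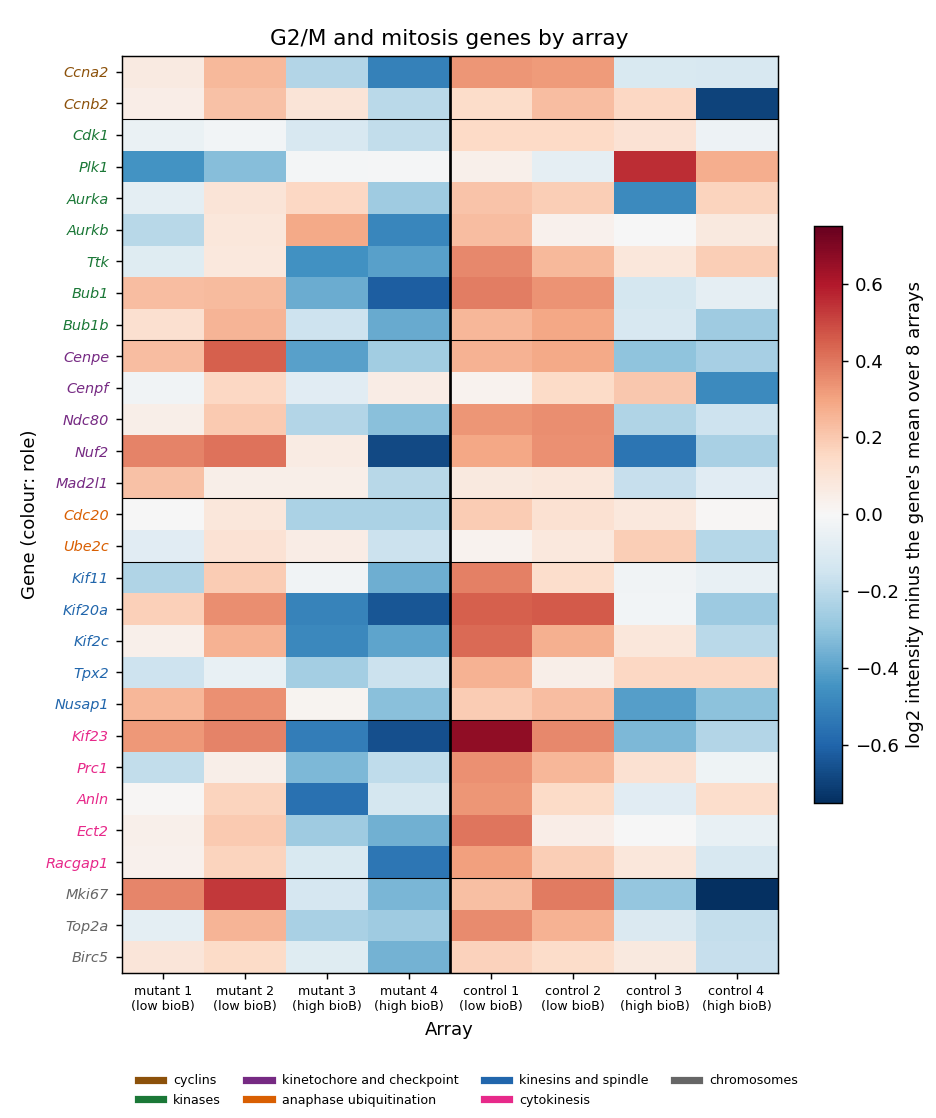
Each cell of the map is the log2 intensity of 1 gene on 1 array minus that gene's mean over the 8 arrays, with mutant arrays left of the line and control arrays right of it, and gene names coloured by role. High-bioB arrays are mostly blue and low-bioB arrays mostly red in both genotypes, and Plk1 runs the other way.

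The labelled cell type was checked on whole marker lists. Of 14 palatal mesenchyme markers 11 read above the median of all probe sets (6.94) on every array, and the mean of the list was 11.11 to 11.64 in mutant and 10.91 to 11.59 in control arrays. Of all 18193 genes, each read by its brightest probe set, 11262 also lay above that median on every array. Such a count is therefore a weak check of cell type. The palate transcription factor genes Osr2 and Tbx22 stayed below that median on all 8 arrays, at 6.22 to 6.91 and 4.70 to 5.13, and Meox2 ran from 5.77 to 9.88. All 16 macrophage and leukocyte markers lay above it on every array, with list means of 11.14 to 13.23 in mutant and 11.08 to 12.51 in control arrays. Macrophages are not of neural crest origin and are outside the reach of Wnt1-Cre. Their part in the differences was not tested beyond fits with macrophage content as a covariate, given below. Of 10 epithelial markers 3 lay above the median on every array, and of 8 endothelial markers 2. Tgfbr2 itself read 12.63, 12.76, 12.55 and 11.73 in mutant arrays 1 to 4, against 12.40, 12.38, 11.72 and 11.66 in control arrays 1 to 4. Its difference was 0.37 (SE 0.27, adjusted p = 0.538 in limma), and since the sources used here do not place its probes relative to the deleted segment, these values do not check the genotype labels. The difference between 3' and 5' probes, a sign of RNA breakdown, ranged from -0.16 to -0.11 in mutant and -0.14 to -0.06 in control arrays for Gapdh.

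The cyclins were represented by Ccna2 and Ccnb2. Ccna2, the S and G2 phase cyclin that activates CDK2 and CDK1, read 11.29, 11.46, 11.00 and 10.71 in mutant arrays 1 to 4, against 11.55, 11.54, 11.11 and 11.103 in control arrays 1 to 4. Mutant arrays 3 and 4 were the lowest 2 and the groups overlapped, with a difference of -0.21 (SE 0.19, 95% interval -0.64 to 0.21). Ccnb2, a B-type cyclin of mitosis, read 11.93, 12.10, 11.98 and 11.68 in mutant arrays 1 to 4, against 12.02, 12.11, 12.04 and 11.18 in control arrays 1 to 4. Control 4 stood far below the other 7 arrays, the difference was 0.08 (SE 0.21), and without that array it was -0.13. By bioB class Ccna2 was lower on the high-bioB arrays, with a difference of -0.48 (SE 0.08, adjusted p = 0.0384 in limma) and all 4 of them below all 4 low-bioB arrays.

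All 7 kinase genes had negative differences, and Ttk, Plk1 and Cdk1 were those with a low unadjusted p. Ttk encodes MPS1, the kinase that starts the spindle checkpoint at unattached kinetochores. It read 8.49, 8.66, 8.13 and 8.18 in mutant arrays 1 to 4, against 8.94, 8.83, 8.67 and 8.77 in control arrays 1 to 4. Every mutant array lay below every control array, as for 5.18% of all genes, with means of 8.37 ± 0.26 in mutant and 8.80 ± 0.11 in control arrays (SD, n = 4 each). The difference of -0.44 (SE 0.13) had an unadjusted p = 0.00999 and adjusted p = 0.207 in limma. It was -0.57 within the high-bioB and -0.31 within the low-bioB arrays, and a second probe set of Ttk, whose mean level was 4.78, differed by 0.06. The genotype groups were close, with mutant 2 at 8.66 and control 3 at 8.67. By bioB Ttk differed by -0.29 (SE 0.08, adjusted p = 0.0879 in limma).

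Plk1 encodes Polo-like kinase 1, which acts from mitotic entry through cytokinesis. It read 9.56, 9.69, 9.997 and 10.002 in mutant arrays 1 to 4, against 10.05, 9.94, 10.57 and 10.28 in control arrays 1 to 4. The 2 low-bioB mutants were the lowest arrays and control 3 the highest, and the groups overlapped. Plk1 had means of 9.81 ± 0.22 in mutant and 10.21 ± 0.28 in control arrays (SD, n = 4 each), a difference of -0.40 (SE 0.16, unadjusted p = 0.0375, adjusted p = 0.293 in limma). Within the high-bioB arrays it was -0.43 and within the low-bioB arrays -0.37. Plk1 was the only member of the 29 that was higher on high-bioB than on low-bioB arrays, by 0.40 (SE 0.08, adjusted p = 0.0483 in limma).

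Cdk1, the kinase at the centre of mitotic entry, varied little. It read 12.08, 12.10, 12.01 and 11.94 in mutant arrays 1 to 4, against 12.27, 12.28, 12.23 and 12.09 in control arrays 1 to 4. The 3 highest arrays were controls, and control 4 at 12.09 lay just below mutant 2 at 12.10. The difference was -0.19 (SE 0.08, unadjusted p = 0.0375, adjusted p = 0.293 in limma), a ratio of control to mutant of 1.14, and it was -0.19 within the high-bioB and -0.18 within the low-bioB arrays.

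Of the other kinase genes, Aurka, which matures centrosomes and the spindle poles, had the smallest difference. It read 10.34, 10.51, 10.56 and 10.14 in mutant arrays 1 to 4, against 10.62, 10.60, 9.94 and 10.58 in control arrays 1 to 4. Control 3 lay apart below the other controls, and the difference of -0.05 (SE 0.17) became 0.10 within the high-bioB arrays, to which control 3 belongs. Aurkb, the kinase of the chromosomal passenger complex that corrects faulty attachments, differed by -0.17 (SE 0.16). The checkpoint genes Bub1 and Bub1b differed by -0.26 (SE 0.22) and -0.08 (SE 0.18). Both were lower on high-bioB arrays, Bub1 with a difference of -0.59 (SE 0.09, adjusted p = 0.0359 in limma) and Bub1b with one of -0.46 (SE 0.08, adjusted p = 0.0379).

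The promoters of these genes share sequence that the choice of members did not use. The cell cycle homology region, TTTGAA, is bound by the DREAM and MMB complexes, and CCAAT boxes by NF-Y, both known from other work on late cell cycle genes. In RefSeq windows from 250 bases before to 50 bases after the annotated start (GRCm38.p6), 26 of the 30 genes had an entry, the unmeasured Ccnb1 among them. TTTGAA stood on either strand in 19 of those 26 (73.1%), against 20.2% of 27025 genes, and CCAAT in 19 of 26, against 41.1%. Both stood in 1 window for 16 of 26 (61.5%), against 7.97% of all genes, and they overlapped in 0 of 28 member windows. The wider list of mitotic genes shared much of this: of 84 with an entry, 54.8% held TTTGAA, 66.7% CCAAT and 39.3% both. A match is a description of letters and not a bound site. The windows are shown for the 4 members with an unadjusted p under 0.05 that had an entry, and for Kif23, added after its values were seen because it had the largest difference by bioB. Each line gives 100 bases before and 20 after the start, with TTTGAA and CCAAT of either strand in capitals.
Ttk: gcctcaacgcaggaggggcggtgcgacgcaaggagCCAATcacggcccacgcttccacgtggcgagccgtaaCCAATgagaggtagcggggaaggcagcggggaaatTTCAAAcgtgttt
Prc1: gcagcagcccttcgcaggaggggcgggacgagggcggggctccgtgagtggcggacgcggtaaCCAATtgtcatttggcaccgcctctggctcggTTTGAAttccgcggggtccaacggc
Plk1: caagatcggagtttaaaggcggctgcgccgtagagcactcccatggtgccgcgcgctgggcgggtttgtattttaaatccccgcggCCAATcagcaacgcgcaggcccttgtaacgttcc
Cdk1: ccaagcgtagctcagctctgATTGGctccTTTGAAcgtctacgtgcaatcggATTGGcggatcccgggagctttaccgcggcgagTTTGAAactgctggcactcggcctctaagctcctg
Kif23: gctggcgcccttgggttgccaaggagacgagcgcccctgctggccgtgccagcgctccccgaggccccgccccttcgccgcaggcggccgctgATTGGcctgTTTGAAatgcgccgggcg
They lie at chr9:83834589-83834708 (plus strand) for Ttk, chr7:80294351-80294470 (plus strand) for Prc1, chr7:122159335-122159454 (plus strand) for Plk1, chr10:69352893-69353012 (minus strand) for Cdk1 and chr9:61946780-61946899 (minus strand) for Kif23. Prc1 has 2 entries, and the first is shown. In Prc1 the TTTGAA begins at position -5 and the CCAAT at position -37. The printed stretch of Plk1 holds CCAAT at position -14, and its TTTGAA begins at position 31 after the start, outside the stretch. Each of the 5 windows held both motifs, Plk1 included, which ran opposite to the others by bioB.

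Of the 5 genes grouped here as kinetochore and checkpoint, 4 were positive by genotype, each by less than its SE, with a median of 0.05. This depends on the grouping, since the checkpoint genes Ttk, Bub1 and Bub1b, placed with the kinases, differed by -0.44, -0.26 and -0.08. Cenpe, the kinesin that carries chromosomes to the metaphase plate, had the smallest difference. It read 9.65, 9.87, 9.01 and 9.16 in mutant arrays 1 to 4, against 9.68, 9.70, 9.11 and 9.17 in control arrays 1 to 4. The difference was 0.00536 (SE 0.23, 95% interval -0.51 to 0.52), and all 4 high-bioB arrays lay at or below 9.17 while all 4 low-bioB arrays lay at or above 9.65. Cenpe was lower on high-bioB arrays by 1.53-fold (difference -0.61, SE 0.08, adjusted p = 0.0334 in limma). Ndc80, the microtubule-binding core of the kinetochore, read 8.77, 8.93, 8.51 and 8.42 in mutant arrays 1 to 4, against 9.06, 9.08, 8.51 and 8.57 in control arrays 1 to 4. It had the largest difference by genotype of these 5, -0.15 (SE 0.17), and one of -0.46 (SE 0.07, adjusted p = 0.0359 in limma) by bioB.

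The other kinetochore genes differed in how they followed bioB class. Nuf2, the partner of Ndc80 in its complex, differed by 0.08 (SE 0.29) by genotype and by -0.70 (SE 0.16) by bioB, with all high-bioB arrays below all low-bioB arrays and an adjusted p = 0.0569 in limma. Cenpf, a large protein of the outer kinetochore, differed by 0.05 (SE 0.15), and Mad2l1, which encodes the checkpoint protein MAD2, by 0.05 (SE 0.11). By bioB those 2 differed by -0.15 (SE 0.15) and -0.21 (SE 0.08), with overlapping classes, and Cenpf was highest on control 3, a high-bioB array.

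The 2 genes of the anaphase ubiquitin pathway varied little between arrays. Cdc20, the activator of the anaphase-promoting complex and the target of the checkpoint, read 12.40, 12.48, 12.16 and 12.16 in mutant arrays 1 to 4, against 12.59, 12.51, 12.48 and 12.41 in control arrays 1 to 4. Mutants 3 and 4 were the lowest arrays, and the difference was -0.20 (SE 0.10, unadjusted p = 0.0727, adjusted p = 0.362 in limma). Ube2c, the ubiquitin-conjugating enzyme of that complex, read 12.73, 12.93, 12.87 and 12.65 in mutant arrays 1 to 4, against 12.85, 12.90, 13.004 and 12.61 in control arrays 1 to 4. Its arrays overlapped fully, with differences of -0.04 (SE 0.11) by genotype and -0.07 (SE 0.11) by bioB.

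Among kinesins and spindle proteins 4 of 5 differences were negative, with a median of -0.29. Tpx2, which activates Aurora A and nucleates microtubules near chromosomes, had the smallest p of the 29. It read 9.95, 10.05, 9.85 and 9.95 in mutant arrays 1 to 4, against 10.37, 10.15, 10.26 and 10.26 in control arrays 1 to 4. All 4 mutants lay below all 4 controls, with means of 9.95 ± 0.08 in mutant and 10.26 ± 0.09 in control arrays (SD, n = 4 each). The difference was -0.31 (SE 0.08, unadjusted p = 0.00347, adjusted p = 0.187 in limma), a ratio of control to mutant of 1.24. It was -0.36 within the high-bioB and -0.26 within the low-bioB arrays, and the difference by bioB was small, -0.05 (SE 0.07). The other Tpx2 probe sets, with mean levels of 8.74, 6.95 and 6.89, had differences of -0.12, 0.04 and -0.15.

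Nusap1, which bundles spindle microtubules, had a positive difference that did not pass. It read 10.49, 10.58, 10.26 and 9.92 in mutant arrays 1 to 4, against 10.43, 10.47, 9.82 and 9.93 in control arrays 1 to 4. High-bioB arrays lay below low-bioB arrays, and the differences were 0.15 (SE 0.20) by genotype and -0.51 (SE 0.09, adjusted p = 0.0394 in limma) by bioB. Kif11, the motor that pushes spindle poles apart, differed by -0.21 (SE 0.15) by genotype and -0.24 (SE 0.12) by bioB. Kif2c, a kinesin that shortens microtubules at the centromere, differed by -0.29 (SE 0.20) by genotype and -0.50 (SE 0.10, adjusted p = 0.0471 in limma) by bioB. Kif20a, a kinesin of the central spindle, differed by -0.31 (SE 0.27) by genotype and -0.72 (SE 0.09, adjusted p = 0.0334 in limma) by bioB.

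All 5 cytokinesis genes had negative differences by genotype, from -0.34 to -0.20. Prc1, which crosslinks the microtubules of the spindle midzone, read 10.79, 11.03, 10.64 and 10.79 in mutant arrays 1 to 4, against 11.33, 11.23, 11.09 and 10.95 in control arrays 1 to 4. The 3 lowest arrays were mutants and the 3 highest were controls, with means of 10.81 ± 0.16 in mutant and 11.15 ± 0.16 in control arrays (SD, n = 4 each). The difference of -0.34 (SE 0.11) had an unadjusted p = 0.0170 and adjusted p = 0.240 in limma. It was -0.31 within the high-bioB and -0.37 within the low-bioB arrays. The second probe set of Prc1 differed by -0.47 (SE 0.12, unadjusted p = 0.00520 in limma).

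Kif23, which forms the centralspindlin complex with the product of Racgap1, had the largest difference by bioB of the 29. It read 10.01, 10.05, 9.16 and 9.02 in mutant arrays 1 to 4, against 10.35, 10.04, 9.34 and 9.46 in control arrays 1 to 4. All 4 high-bioB arrays lay between 9.02 and 9.46 and all 4 low-bioB arrays between 10.01 and 10.35, a difference of -0.87 (SE 0.09, adjusted p = 0.0224 in limma) or 1.82-fold. By genotype it was -0.24 (SE 0.31). Ect2, the exchange factor that activates RhoA at the cleavage furrow, read 10.44, 10.60, 10.14 and 10.05 in mutant arrays 1 to 4, against 10.81, 10.46, 10.41 and 10.35 in control arrays 1 to 4. The groups overlapped, with the smallest difference by genotype of the 5 (-0.20, SE 0.15). Racgap1 and the furrow scaffold gene Anln differed by -0.23 (SE 0.16) and -0.26 (SE 0.16) by genotype, and by -0.35 (SE 0.11) and -0.32 (SE 0.12) by bioB.

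Mki67, whose product coats mitotic chromosomes and is the standard proliferation antigen, read higher in mutants than in controls without passing. It read 11.48, 11.65, 10.99 and 10.77 in mutant arrays 1 to 4, against 11.34, 11.51, 10.83 and 10.37 in control arrays 1 to 4. High-bioB arrays were below low-bioB arrays in each genotype, and the genotypes overlapped, with means of 11.22 ± 0.41 in mutant and 11.01 ± 0.52 in control arrays (SD, n = 4 each). The difference was 0.21 (SE 0.29, 95% interval -0.44 to 0.87), and without control 4, the lowest array, it was -0.00405. By bioB Mki67 was lower by 1.69-fold (difference -0.76, SE 0.12, adjusted p = 0.0376 in limma). Birc5, the survivin subunit of the chromosomal passenger complex, read 12.13, 12.18, 11.95 and 11.68 in mutant arrays 1 to 4, against 12.21, 12.18, 12.11 and 11.87 in control arrays 1 to 4. All 4 high-bioB arrays lay below the low-bioB arrays, and the difference by genotype was -0.11 (SE 0.13). Top2a, the topoisomerase that untangles sister chromatids, differed by -0.17 (SE 0.16) by genotype and -0.40 (SE 0.09, adjusted p = 0.0535 in limma) by bioB.

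**Figure D2:**
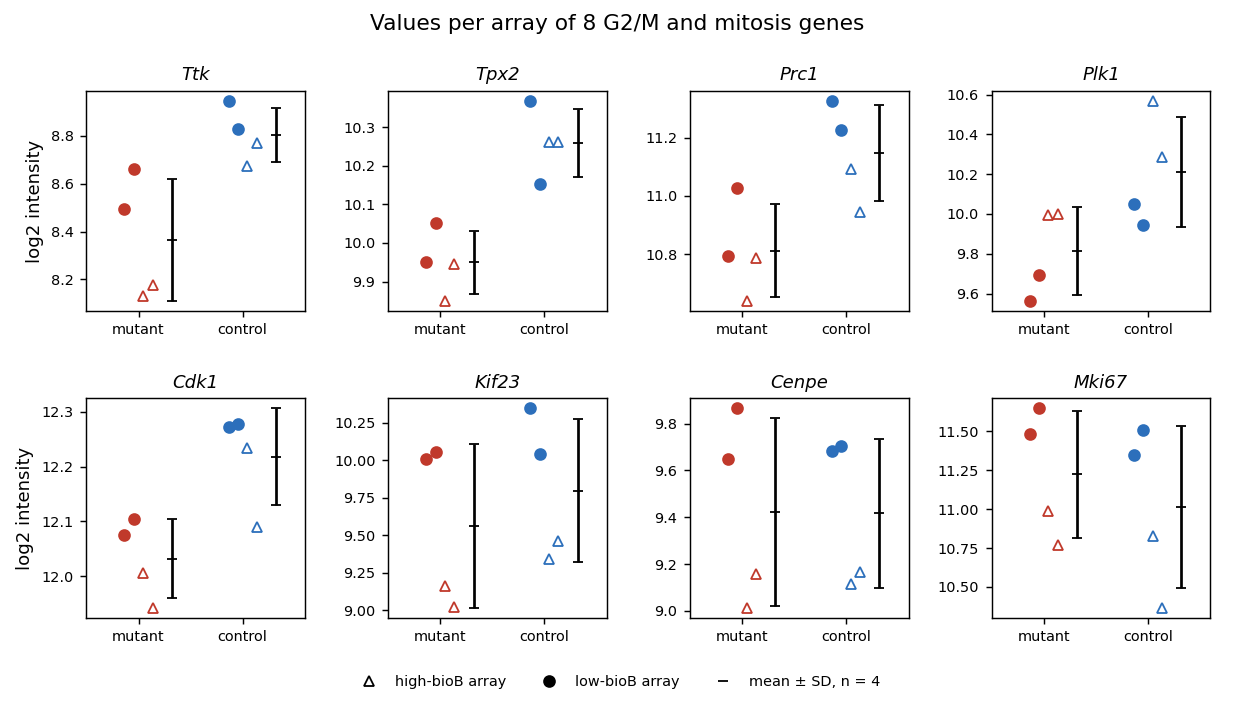
Log2 intensity of 8 genes on each array, mutant arrays left and control arrays right in each panel, with open triangles for high-bioB and filled circles for low-bioB arrays and bars for the mean ± SD (n = 4). Ttk and Tpx2 divide by genotype, Ttk by a narrow gap, while Kif23, Cenpe and Mki67 divide by bioB class in both genotypes. Ttk is also lower on average on high-bioB arrays.

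The genes with more than 1 probe set gave a check on the choice of the brightest. Of 29 further probe sets for 18 of the genes, 21 had the sign of the brightest one. No pair with opposite signs had both differences above 0.2 in size. Besides the second probe set of Prc1, that of the cyclin gene Ccna2 reached an unadjusted p under 0.05. It differed by -0.28 (SE 0.09, unadjusted p = 0.0127 in limma).

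By bioB class 28 of the 29 genes had negative differences, with a median of -0.32, against 39.8% of all genes negative and a median of 0.05. Macrophage markers moved the same way and further: all 16 of the macrophage and leukocyte list had negative differences by bioB, with a median of -1.15 and 14 at an unadjusted p under 0.05, though 0 passed in limma. The mean level of that list was 11.08 to 13.23 on high-bioB and 12.30 to 13.18 on low-bioB arrays, and its part in the difference of the mitotic genes was examined only through the macrophage covariate. For 13 of the 29 all high-bioB arrays lay below all low-bioB arrays, as for 4.50% of all genes. The 10 genes lower at an adjusted p under 0.05 came from 6 of the 7 roles and were Ccna2, Bub1, Bub1b, Cenpe, Ndc80, Kif20a, Kif2c, Nusap1, Kif23 and Mki67. The sign was the same in mutant and in control arrays for 28 of 29. Aurkb, Ube2c and Tpx2 had the smallest differences, of -0.07, -0.07 and -0.05. This contrast was examined after the data had been seen. Its calls depended on single arrays: 14 of the 29 passed in limma without mutant 3, where 16.7% of all genes did, and 10 without control 4, where 5.12% did. Without mutant 1, 2 or 4 or control 1, 2 or 3, 0 of the 29 passed, as did 0 to 6 of all genes, and 16 to 20 of the 29 had an unadjusted p under 0.05. The share of all genes at that p is not given for those fits, so these counts cannot be read as particular to the mitotic genes. With every array in the fit, 20 of the 29 were lower and 1 higher at that p, against 10.9% and 16.3% of all genes. Whether the genotype difference depended on bioB class could not be decided, since each class holds so few arrays of each genotype. Interaction terms fell below an unadjusted p of 0.05 in limma for 0 of the 29, against 796 of 18193 over all genes. The lowest such p among the 29 was 0.123, and 0 genes of the whole array passed after adjustment.

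**Figure D3:**
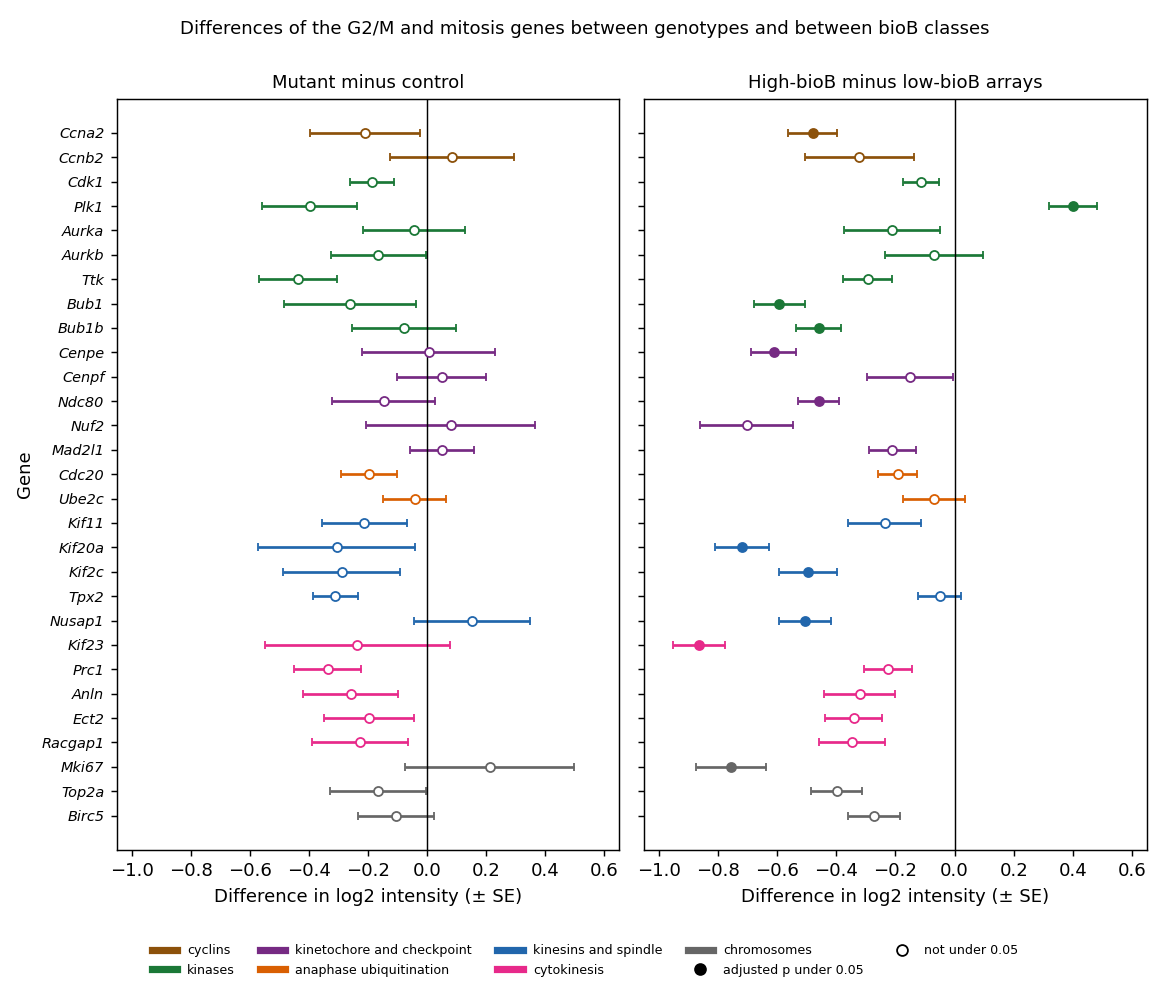
Differences in log2 intensity (± SE) of the 29 genes, by genotype on the left (mutant minus control) and by bioB class on the right (high minus low, genotype in the fit), coloured by role, with filled points for an adjusted p under 0.05. The fit on the left does not include bioB class, so its SE also hold the spread between classes and are not like those on the right. The left panel has 0 filled points and the right panel 11, and Plk1 is the one filled point right of 0.

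With bioB class as a block the median difference between mutant and control cells stayed at -0.19, since each class holds both genotypes equally. In that fit 11 of the 29 were lower and 0 higher at an unadjusted p under 0.05, against 13.3% of all genes lower and 8.71% higher, and 0 passed in limma, with a lowest adjusted p of 0.0931. The median was -0.17 within the high-bioB arrays, where 22 of 29 were negative, and -0.15 within the low-bioB arrays, where 24 were. The mean of the 29 genes per array was 10.37 and 10.22 in high-bioB mutants, against 10.50 and 10.41 in high-bioB controls. In the low-bioB arrays it was 10.59 and 10.73 in mutants, against 10.82 and 10.76 in controls. Within each class the mutant arrays thus lay below the control arrays, while over all 8 the genotypes overlapped.

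Macrophage content was measured per array as the mean of Ctss, a lysosomal protease, and of Tyrobp and Fcer1g, signalling adaptors of myeloid receptors. It was 14.34, 14.29, 14.40 and 12.86 in mutant arrays 1 to 4, against 13.78, 13.93, 12.74 and 12.47 in control arrays 1 to 4. The difference of 0.74 between genotype means did not pass an exact two-sided permutation test (p = 0.171). Within each bioB class, though, both mutants lay above both controls. All 16 genes of the macrophage and leukocyte list were also positive by genotype, with a median of 0.91. At an unadjusted p under 0.05, 4 of them were higher, against 5.84% of all genes, and 0 passed in limma. With bioB class as a block 7 were higher at that p, against 8.71%. By macrophage content the arrays fell into 5 with 13.78 or more and 3 with 12.86 or less. No correlation with the mitotic genes is therefore given, and neither cluster holds enough arrays for one. The 3 arrays low in macrophage content, mutant 4 and controls 3 and 4, were among the 4 lowest in the mean of the mitotic genes (10.22, 10.50 and 10.41). Mutant 3 was the exception, with the highest macrophage content and a mitotic mean of 10.37.

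**Figure D4:**
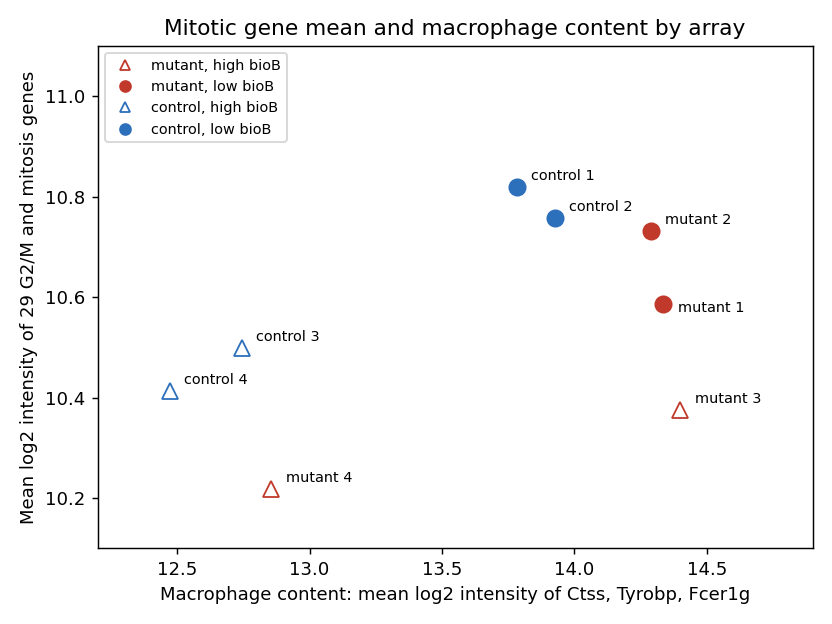
Mean log2 intensity of the 29 genes on each array against macrophage content (mean log2 intensity of Ctss, Tyrobp and Fcer1g), with mutants in red and controls in blue, open triangles for high-bioB and filled circles for low-bioB arrays. The 4 high-bioB arrays lie at or below 10.50 and the 4 low-bioB arrays at or above 10.59, and mutant 3 lies low at the highest macrophage content.

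With macrophage content as a covariate all 29 genes were negative in the genotype comparison, against 47.1% of all genes, and the median was -0.32. In this fit 18 of the 29 were lower at an unadjusted p under 0.05, against 9.36% of all genes, and 0 passed in limma, with a lowest adjusted p of 0.159. Ccna2 then differed by -0.47, Ttk by -0.54, Kif23 by -0.62, Kif20a by -0.64 and Mki67 by -0.18. These values rest on a slope fitted to the same few arrays, whose macrophage content falls into separate clusters. That content was also higher in mutants on average, and the arrays low in it were all high-bioB. The fit therefore cannot cleanly separate macrophage content from genotype or bioB class. With both bioB class and macrophage content in the fit, chosen after seeing the data, the median was -0.21, with 25 negative and 11 lower at an unadjusted p under 0.05 against 6.53% of all genes. By bioB class, the covariate left the median at -0.31, but 0 of 29 and 0 of all genes then passed in limma, with 13 lower at an unadjusted p under 0.05 against 5.22% of all genes. Which share of these transcripts came from macrophages and which from mesenchyme was not tested.

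The wider set of mitotic genes, from a list of 100 chosen by function, had few genes with a low p between genotypes when genotype was the one term. Of 98 measured, 78 were negative, with a median of -0.16. At an unadjusted p under 0.05, 9 of 98 were lower and 1 higher, where 9.69% of all genes were lower and 5.84% higher. In this fit the count lower was thus no larger than over all genes. In limma 0 passed, and the 6 with the smallest p are given as single genes. Wee1, the kinase that holds CDK1 inactive, differed by -0.29 (SE 0.07, adjusted p = 0.187 in limma) and Plk4, the kinase that starts centriole duplication, by -0.39 (SE 0.10). The kinetochore genes Spc25 and Cenph differed by -0.27 (SE 0.07) and -0.37 (SE 0.11), and Kntc1, whose product acts in the checkpoint, by -0.32 (SE 0.10). Cit, the citron kinase of the midbody, was the one higher at that p. It read 9.80, 9.66, 9.78 and 9.57 in mutant arrays 1 to 4, against 9.38, 9.47, 9.29 and 9.37 in control arrays 1 to 4, a difference of 0.33 (SE 0.08). The groups did not overlap for Cit, as for 2.89% of all genes in that direction. Other fits of the genotype difference gave higher counts. With bioB class as a block, 29 of the 98 were lower and 1 higher at that p, against 13.3% and 8.71% of all genes. With macrophage content as a covariate 36 were lower and 4 higher, where 9.36% of all genes were lower. With both terms 24 were lower and 2 higher, where 6.53% of all genes were lower. By bioB class 16 of the 98 passed as lower and 1 as higher, against 1.34% and 1.85% of all genes.

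Regulators of this transcription programme were mixed. Of 18, 3 were lower and 1 higher at an unadjusted p under 0.05, against 9.69% and 5.84% of all genes, and 0 passed in limma. E2f7, a repressor that acts on E2F targets, read 8.20, 8.73, 8.13 and 8.45 in mutant arrays 1 to 4, against 9.05, 8.74, 9.14 and 9.45 in control arrays 1 to 4. All mutants lay below all controls, a difference of -0.72 (SE 0.18, unadjusted p = 0.00362, adjusted p = 0.187 in limma). The E2F partner genes Tfdp2 and Tfdp1 differed by -0.33 (SE 0.08) and -0.41 (SE 0.12). The one with a positive difference at that p, named after its value was seen, was the DREAM and MMB subunit gene Lin52, at 0.21 (SE 0.07). Foxm1, the transcription factor that activates many of the mitotic genes, is named for that role outside the rule, and differed by 0.03 (SE 0.15) by genotype. By bioB class Foxm1 differed by 0.36 (SE 0.08, adjusted p = 0.0602 in limma), with all high-bioB arrays above all low-bioB arrays, the direction of Plk1 and opposite to the other 28 genes.

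Genes of G1/S and DNA replication gave larger genotype differences and smaller ones by bioB than the mitotic genes, a description with no test of the difference. Of 39 measured, 33 were negative, with medians of -0.27 by genotype and -0.09 by bioB class. At an unadjusted p under 0.05, 15 of the 39 were lower and 0 higher in mutants, against 9.69% and 5.84% of all genes, and 0 passed in limma. Orc6, a subunit of the origin recognition complex, read 10.08, 10.09, 9.98 and 9.84 in mutant arrays 1 to 4, against 10.40, 10.27, 10.27 and 10.70 in control arrays 1 to 4. All mutants lay below all controls, with a difference of -0.41 (SE 0.11), and its difference by bioB was -0.01 (SE 0.12). Mcm2, a subunit of the replicative helicase, differed by -0.53 (SE 0.12) and Cdc6, which loads that helicase, by -0.66 (SE 0.17).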

How the data were processed

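The deposited table gives a log2 intensity for every probe set on each of the 8 arrays, made by the authors with RMA, per the submitters' processing notes, with no version stated. RMA corrects background, equalises the arrays' distributions by quantiles and summarises probes. The values ran from 3.21 to 15.18 and were used as deposited. Each array was assigned to its genotype by its title. Of 45101 probe sets, 34945 had exactly 1 gene symbol, 932 had several, 9160 were not listed in the platform annotation used and 64 were array controls. Symbols were updated by Entrez identifier through a RefSeq table of GRCm38.p6 (34741 matched), and each of the resulting 18193 genes was read by its brightest probe set on average.

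Two-sided tests used lmFit and eBayes of limma 3.58.1 (R 4.3.3) on all genes, with genotype as the one term and differences as mutant minus control, with Benjamini-Hochberg adjustment over all of them and a threshold of 0.05. SE and intervals are limma's moderated ones. Named members were those with an unadjusted p under 0.05 and the largest and smallest difference of each role, and up to 6 genes of the wider mitotic list and 3 regulators with the smallest p. Other genes were named after their values were seen. The members, lists, tests and alternatives were chosen with earlier results of these data known. Alternatives covered probe set choice, normalisation, dim genes, variance model, array weights, control-probe classes, macrophage content and single arrays left out. In simulated data for 18193 genes and 4 against 4 arrays, of 100 genes shifted by 1 (log2) 78% were called, and of 100 shifted by 2, 95%. Of the 190 calls 17 were false. The simulated noise was independent between genes, with no shared bioB class or macrophage content. Both shifts were larger than any genotype difference of the 29, of which the largest in size was -0.44. These rates are therefore not the power of the comparison for the mitotic genes.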

Additional observations from a re-analysis of the deposited data

Results flagged for a closer look

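Dixon's criterion for an outlying value was applied to 62 groups, 29 genes and 2 array measures in each genotype, and chance alone marks about 1 in 20. It marked 3. Ccnb2 read 11.18 on control 4, where the other controls read 12.02 to 12.11. Aurka read 9.94 on control 3, where the other controls read 10.58 to 10.62. Macrophage content was 12.86 on mutant 4, where the other mutants read 14.29 to 14.40.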

How the results depend on the processing

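The count of mitotic genes past the threshold between genotypes was 0 under each of the 22 alternatives, with a lowest adjusted p in limma of 0.0509 with array weights. The count lower at an unadjusted p under 0.05, 5 as reported, was 3 with the mean or the most variable probe set and within the low-bioB arrays, 11 with bioB class as a block alone or with macrophage content, 18 with macrophage content, and 3 to 5 with 1 array left out. Within the high-bioB arrays it was 5. Over all genes the count at that p in either direction moved too. It was 2660 and 2623 with the mean and the most variable probe set, 5212 within the low-bioB and 947 within the high-bioB arrays. With bioB class as a block it was 4012, with macrophage content 3139, with both 2031, and 1738 to 4388 with 1 array left out. The median over the 29 ran from -0.32 with macrophage content to -0.08 without mutant 4 over the 22 alternatives, and was -0.26 at the lowest with 1 array left out (mutant 2). The count of all genes passing, 16 as reported, was 3 with the most variable probe set, 1470 with array weights, 2085 within the low-bioB and 0 within the high-bioB arrays, 2 with the poly-A labelling control class as a block, 2 with bioB class and macrophage content, and 0 to 1316 with 1 array left out. The count passing by bioB class, 11 as reported, was 7 with the mean of the probe sets, 0 with macrophage content and 0 to 14 with 1 array left out. With the replicate number as a block, 12 mitotic genes were lower and 1 higher at that p, and 0 passed, as did 0 of all genes. In that fit 3828 of 18193 genes were at that p in either direction, against 2826 as reported. Whether the numbers pair the samples could not be decided. Same-numbered arrays correlated at 0.47, 0.42, -0.09 and 0.37 in their deviations from the group means, and mutant 1 with control 2 at 0.51. Same-numbered arrays also share their bioB class, which these values cannot separate from a pairing.

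Of the 16 named members 9 kept their sign under every alternative. Aurka turned to 0.00234 with quantile normalisation, 0.10 within the high-bioB arrays and 0.0355 with the labelling class, and ran from -0.21 to 0.0362 with 1 array left out. Ccnb2 turned to -0.0114 with array weights, -0.0491 within the low-bioB arrays, -0.15 with macrophage content and -0.14 with bioB class added, and ran from -0.13 to 0.18. Cenpe turned to -0.0264 with median centring, -0.0292 with array weights, -0.0552 within the high-bioB arrays and -0.23 with macrophage content, and ran from -0.14 to 0.14. With macrophage content Mki67 read -0.18 and Nusap1 -0.13. Mki67 ran from -0.00405 to 0.38 with 1 array left out and Ube2c from -0.12 to 0.0129, and Tpx2 read 0.0379 with its most variable probe set. The causes were not tested, and none of these values passed.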
